A study of Bos taurus and Sus scrofa with 10 samples.

Results

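The 10 genes described here take part in shortening or extending the poly(A) tails of maternal mRNAs, or in the decay of such mRNAs. They are the adaptor BTG4, the CCR4-NOT deadenylases CNOT6, CNOT6L, CNOT7 and CNOT8, and the terminal uridylyltransferases ZCCHC6 and ZCCHC11. The others are the RNA-binding protein ZFP36L2, the exonuclease DIS3L2 and the poly(A)-binding protein PABPN1L. The 10 genes were chosen by name, with earlier results of these data known. Their levels were read at every stage in the cow and the pig table. All 10 had a row among the 22845 gene rows of the cow table, and 9 of the 10 had a row among the 21867 gene rows of the pig table. CNOT6 was not analysed in the pig. No member had more than 1 row in a table.

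An oocyte stores mRNAs that it transcribed while growing, and the early embryo runs on them until its own genome is activated. Clearance of these stored mRNAs usually begins with removal of the poly(A) tail by the CCR4-NOT complex, which BTG4 couples to translated maternal mRNAs, and short tails can then be extended with uridines that mark the mRNA for decay. In the mouse, loss of BTG4 leaves maternal mRNAs in place and arrests the embryo during the first cleavages.

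RNA was sequenced from oocytes, 2-4 cell embryos, 8-16 cell embryos, morulae and blastocysts from 2 species, the cow Bos taurus and the pig Sus scrofa. Each stage of each species gave 1 library, which makes 10 libraries and no replicates, so no test between stages was possible and no difference below has a replicate check. The labels give no breed, age, treatment or way of producing the embryos, and the number of oocytes or embryos behind a library is not given in the sources used here. Total RNA was amplified to cDNA from low input and amplified again by PCR.

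Levels are reads per 1000000 library reads (RPM), not divided by gene length, so they compare a gene between stages and not 1 gene with another. A difference between 2 stages is the later minus the earlier value of log2(RPM + 1) within a species. It was counted as called at 2 or more, a 4-fold change on that scale, for genes with at least 1 RPM in 1 of both stages. Intervals are 95% and cover counting error only, because amplified reads are not independent molecules: Wilson intervals for a level, and exact conditional binomial intervals for a fold. A fold against a library with 0 reads is set against 3 reads in that library. In RNA of whole embryos, fewer cells that hold a transcript and less of it per cell cannot be told apart.

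Library totals ran from 3002751 to 14182046 reads, and 3 reads correspond to 0.212 to 0.999 RPM. Mitochondrial genes took 2.74% to 30.2% of the reads, with the highest share in the cow blastocyst. Summed oocyte markers ran from 8383 RPM in the cow oocyte to 468 RPM in the cow blastocyst, where 7 of the 10 were at 0 reads, and from 5133 to 22.4 RPM in the pig, where 8 of 10 had a row. Summed blastocyst markers ran the other way, from 63.0 to 3656 RPM in the cow and from 24.3 to 8648 RPM in the pig. In the pig blastocyst NANOG, SOX2 and SOX17 were at 0 reads. The 13 of 14 cumulus or granulosa cell markers with a cow row summed to 464 RPM in the oocyte, 421 at 2-4 cells and 65.5 to 119 RPM later, with AMH, LHCGR and FOXL2 at 0 reads in the oocyte. The 9 with a pig row summed to 136 to 364 RPM over the stages. The part of such cells in the results was not tested.

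BTG4, CNOT6L, CNOT7 and CNOT8 fell from oocyte to blastocyst in both species. In the cow 5 of the 10 members were called lower, these 4 and PABPN1L, against 18.4% of all compared genes, and 2 were called higher, ZCCHC11 and DIS3L2, against 21.8%. In the pig 5 of the 8 compared members were called lower, the same 4 and ZCCHC6, against 19.2% of all compared genes, and 0 were called higher, against 26.0%. Of the 8 members compared in both species 4 were lower in both, where 8.49% of the 8566 genes compared in both were lower in both. The median difference over the members was -2.25 in the cow and -2.12 over the 9 pig rows, beside medians over all compared genes of 0.18 and 0.43.

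**Figure D1:**
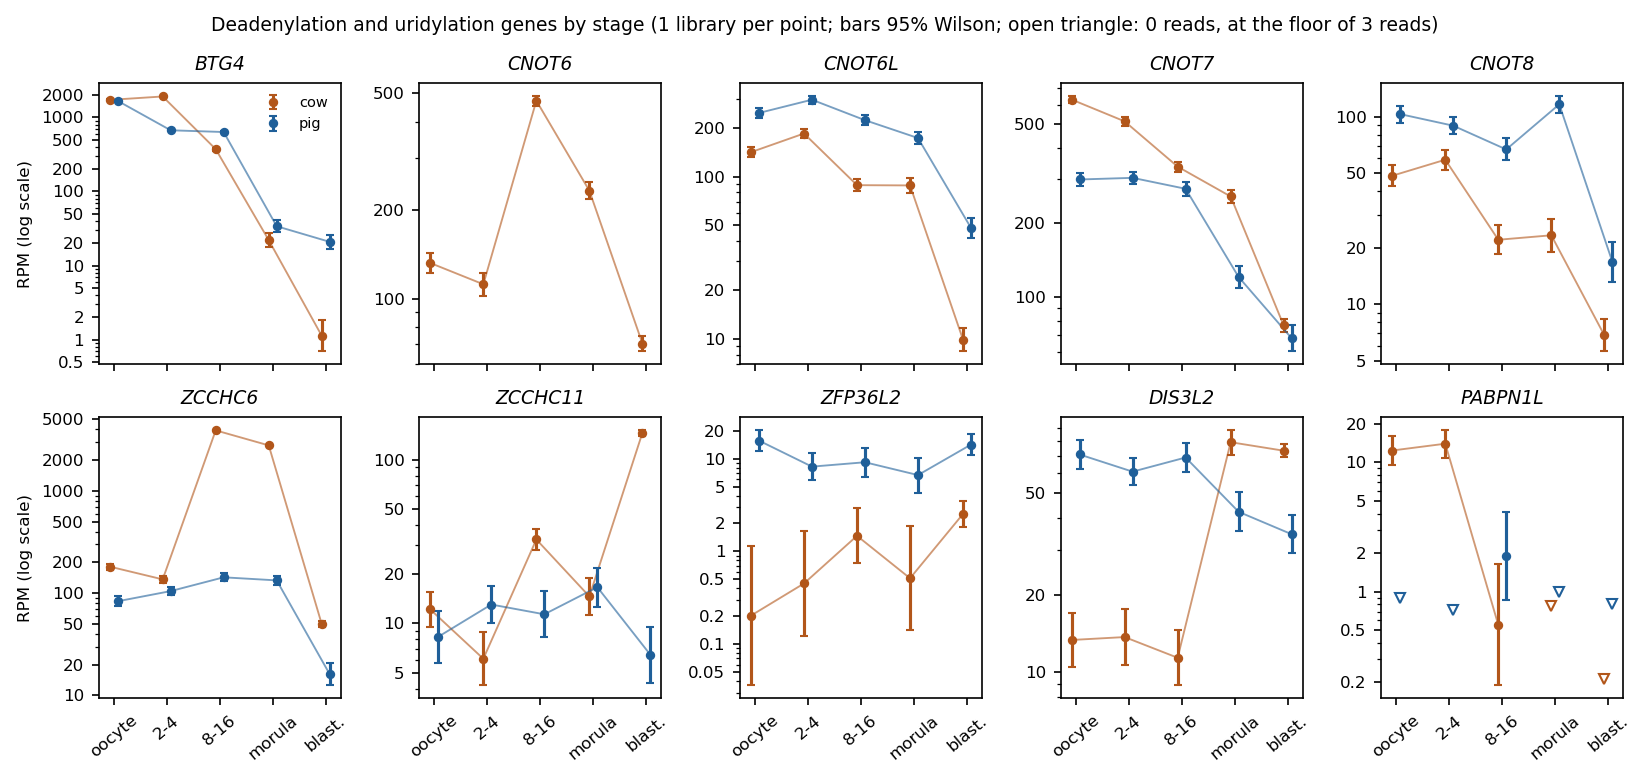
Level of each gene (RPM, log scale) at the 5 stages in cow (brown) and pig (blue), with 1 library per point, 95% Wilson intervals as bars, and open triangles at the floor of 3 reads for libraries with 0 reads. BTG4 goes from 1723 to 1.13 RPM in the cow and from 1674 to 20.9 RPM in the pig, whereas cow ZCCHC6 stands at 3911 RPM at 8-16 cells between lower oocyte and blastocyst values.

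BTG4, the adaptor that recruits the deadenylase to maternal mRNAs, had the largest fall of the members in both species. In the cow, where the gene lies on chromosome 15 from 22105614 to 22120867 on the minus strand, it stood at 1723 RPM in the oocyte, 1917 at 2-4 cells, 373 at 8-16 cells, 22.1 in the morula and 1.13 in the blastocyst. The cow blastocyst value rests on 16 reads and has an interval of 0.694 to 1.83 RPM, so 0.0655% of the oocyte level was left. The fall was 1527-fold (939.6 to 2672), a difference of -9.66, and the 8th largest fall among 12738 compared cow genes. The levels at 2-4 cells were 111% of the oocyte level, and those at 8-16 cells 21.6%.

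In the pig, BTG4 lies on chromosome 9 from 39236413 to 39301867 on the minus strand, and its levels were 1674 RPM in the oocyte, 670 at 2-4 cells, 635 at 8-16 cells, 34.0 in the morula and 20.9 in the blastocyst. The pig blastocyst kept 1.25% of the oocyte level, an 80.0-fold fall (64.0 to 101) and a difference of -6.26, which ranked 159 among 12512 compared genes. On the log2(RPM + 1) scale both species had their steepest fall from 8-16 cells to morula, at -4.02 in the cow and -4.18 in the pig. The RPM folds were 16.9 in the cow (13.6 to 21.2) and 18.7 in the pig (15.3 to 23.0). By fold, the cow fall from morula to blastocyst was larger, at 19.5 (11.4 to 35.7), with overlapping intervals. The step from 8-16 cells to morula held 41.6% of the cow difference from oocyte to blastocyst and 66.9% of the pig difference. It ranked 30 among the falls of 12334 cow genes and 65 among those of 12746 pig genes.

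The species differed before and after that step. Cow BTG4 fell 5.14-fold from 2-4 to 8-16 cells (4.90 to 5.40), whereas pig BTG4 had overlapping intervals at these stages and a difference of -0.08. With libraries scaled to the median gene the cow difference at that step was -1.91, under the threshold, instead of -2.36. From morula to blastocyst cow BTG4 fell 19.5-fold (11.4 to 35.7), and the pig difference was -0.67. From oocyte to 2-4 cells the pig difference was -1.32, and the cow difference was 0.15, or -0.16 with libraries scaled to the median gene.

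The pig BTG4 span overlaps C11orf88 on the other strand over 24873 bases, and whether reads were counted by strand is not given in the sources used here. C11orf88 stood at 0.888, 0.725, 6.95, 13.7 and 22.0 RPM from oocyte to blastocyst. Its level was thus close to that of BTG4 in the blastocyst, and how many reads of the 2 genes are shared was not tested. The cow BTG4 span overlaps no other gene row.

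PABPN1L, a poly(A)-binding protein of oocytes and early embryos that works with BTG4 in the mouse, fell early in the cow. On cow chromosome 18, from 14086352 to 14089008 on the minus strand, it had 61 reads in the oocyte (12.4 RPM), 62 at 2-4 cells (14.0 RPM), 3 at 8-16 cells, and 0 in the morula and the blastocyst. The fall from 2-4 to 8-16 cells was 25.3-fold with a wide counting interval (8.26 to 126), since it rests on 3 reads. The blastocyst was at least 58.5-fold lower than the oocyte. Adding 5 RPM instead of 1 brought these differences from -3.27 and -3.65 to -1.77 and -1.78, under the threshold. The pig row, on chromosome 6 from 858888 to 861604 on the plus strand, had 6 reads at 8-16 cells (1.90 RPM, 0.869 to 4.13) and 0 at the other 4 stages, where 0 reads allow 0.725 to 0.999 RPM. A fall of the cow kind could therefore not be looked for in the pig.

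ZFP36L2, a zinc finger protein that binds AU-rich elements and recruits the deadenylase, was scarce in the cow. Its cow row, on chromosome 11 from 25585493 to 25587785 on the minus strand, held 1 read in the oocyte, 2 at 2-4 cells, 8 at 8-16 cells, 2 in the morula and 36 in the blastocyst (2.54 RPM). The ratio of blastocyst to oocyte was 12.5 with an interval of 2.11 to 508, and the difference of 1.56 was not called. It reached 2.11 with a pseudocount of 0.5 and 2.19 with scaling to non-mitochondrial gene reads. Pig ZFP36L2, on chromosome 3 from 97200342 to 97207305 on the plus strand, stood at 15.7, 8.22, 9.16, 6.66 and 14.2 RPM from oocyte to blastocyst. The oocyte and blastocyst intervals overlapped, with a difference of -0.13.

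CNOT7 and CNOT8 are paralogous deadenylase subunits of the CCR4-NOT complex, of which a complex holds either. Cow CNOT7, on chromosome 27 from 19052444 to 19067489 on the plus strand, went through 631, 515, 337, 255 and 76.7 RPM from oocyte to blastocyst. Each stage lay below the previous one with intervals apart, and the fall from oocyte to blastocyst was 8.22-fold (7.67 to 8.82). Pig CNOT7, on chromosome 17 from 4926156 to 4949607 on the minus strand, stood at 299, 304, 274, 121 and 68.1 RPM. The first 3 stages were near each other, the steepest step ran from 8-16 cells to morula at -1.18, and the fall over all stages was 4.40-fold (3.83 to 5.06). The pig span overlaps ZDHHC2 on the other strand over 2509 bases, a gene at 6.17 to 17.1 RPM.

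Cow CNOT8, on chromosome 7 from 68039858 to 68057466 on the plus strand, stood at 48.5, 59.0, 22.1, 23.3 and 6.84 RPM from oocyte to blastocyst. It had lower levels at 8-16 cells and again in the blastocyst, and the fall from oocyte to blastocyst was 7.09-fold (5.58 to 9.07). Pig CNOT8, on chromosome 16 from 68329793 to 68350260 on the minus strand, stood at 103, 89.6, 67.0, 117 and 16.9 RPM. It was highest in the morula and then fell 6.90-fold to the blastocyst (5.26 to 9.17), the only step at which pig CNOT8 was called. GEMIN5 overlaps it on the other strand over 3109 bases and was highest in the morula too, at 300.4 RPM, beside 119 to 147 RPM earlier and 62.5 RPM in the blastocyst. How many reads the 2 genes share was not tested.

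**Figure D2:**
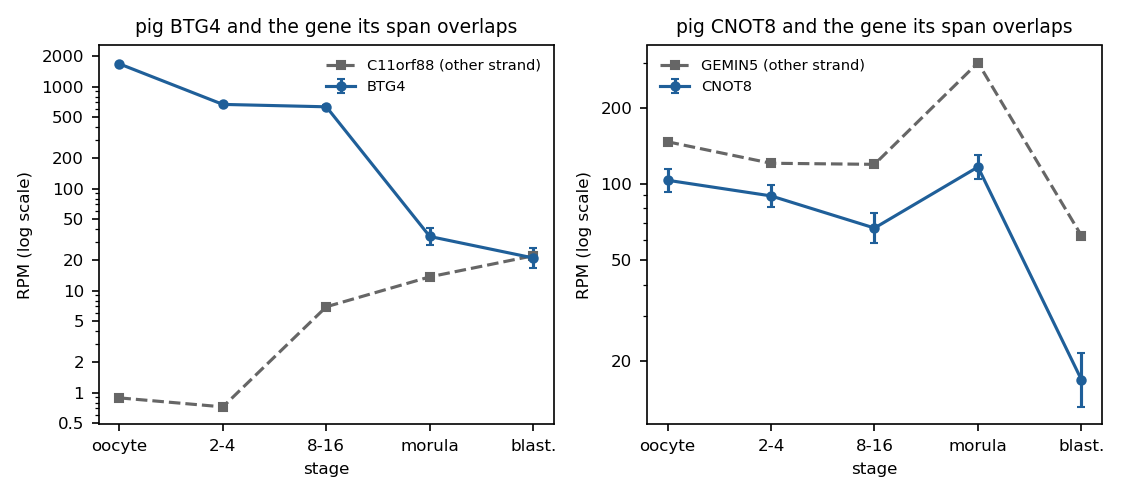
Pig BTG4 and CNOT8 (solid, 95% Wilson intervals as bars) beside the genes on the other strand that their spans overlap (dashed), in RPM on a log scale over the 5 stages, 1 library per point. C11orf88 goes up to 22.0 RPM where BTG4 ends at 20.9 RPM, and GEMIN5 peaks at 300.4 RPM in the morula, the stage at which CNOT8 stands at 117 RPM.

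CNOT6 and CNOT6L are the other pair of paralogous deadenylases of the complex, from a different nuclease family. Cow CNOT6L, on chromosome 6 from 94177121 to 94217673 on the minus strand, stood at 141, 184, 88.5, 88.2 and 9.87 RPM from oocyte to blastocyst. Most of its fall came at the last step, 8.94-fold from morula to blastocyst (7.32 to 10.96), and the fall from the oocyte was 14.3-fold (11.9 to 17.3). Pig CNOT6L, on chromosome 8 from 73194478 to 73305308 on the minus strand, stood at 247, 298, 223, 173 and 48.3 RPM. Its fall from oocyte to blastocyst was 5.11-fold (4.34 to 6.04), and its steepest step was also the last, at -1.82, which was not called.

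Cow CNOT6 did not follow CNOT6L. It lies on chromosome 7 from 493450 to 574753 on the minus strand and stood at 132, 112, 471, 233 and 70.4 RPM from oocyte to blastocyst. The rise from 2-4 to 8-16 cells was 4.21-fold (3.82 to 4.64), a difference of 2.06, close to the threshold. The 8-16 cell embryo had the highest level and the blastocyst the lowest, with a difference of -0.90 from the oocyte that was not called.

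ZCCHC6 and ZCCHC11, also named TUT7 and TUT4, add uridines to short poly(A) tails. Cow ZCCHC6, on chromosome 8 from 80842965 to 80899685 on the minus strand, stood at 182 RPM in the oocyte, 136 at 2-4 cells, 3911 at 8-16 cells, 2789 in the morula and 49.7 in the blastocyst. It rose 28.7-fold from 2-4 to 8-16 cells (26.5 to 31.2) and fell 56.1-fold from morula to blastocyst (52.0 to 60.6). The rise ranked 155 among 12405 compared genes, and the fall ranked 15 among 12653. The oocyte and blastocyst ends of this peak differed by -1.85, under the threshold, and by -2.05 with libraries scaled to the median gene.

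Pig ZCCHC6, on chromosome 10 from 28995574 to 29061177 on the plus strand, stood at 83.2, 105, 143, 133 and 16.1 RPM from oocyte to blastocyst. No peak of the cow size was seen: the difference from 2-4 to 8-16 cells was 0.44. The last step was a fall here too, 8.28-fold (6.30 to 11.05), and the fall from oocyte to blastocyst was 5.17-fold (3.90 to 6.95).

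Cow ZCCHC11, on chromosome 3 from 94414997 to 94512804 on the plus strand, stood at 12.2, 6.08, 32.6, 14.6 and 146 RPM from oocyte to blastocyst. It rose 5.36-fold from 2-4 to 8-16 cells (3.56 to 8.36) and 9.99-fold from morula to blastocyst (7.68 to 13.2), which left the blastocyst 12.0-fold above the oocyte (9.28 to 15.8). The earlier rise was not called with a pseudocount of 5, at 1.76 instead of 2.25. Pig ZCCHC11, on chromosome 6 from 159655629 to 159792599 on the plus strand, stood at 8.29, 13.0, 11.4, 16.7 and 6.43 RPM. The pig differences stayed between -1.25 and 0.60 at every step, and the oocyte and blastocyst intervals overlapped.

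DIS3L2, the exonuclease that degrades uridylated RNA, also had unlike courses in the 2 species. In the cow it lies on chromosome 2 from 120486066 to 120794558 on the plus strand and stood at 13.4, 13.7, 11.4, 79.0 and 73.2 RPM from oocyte to blastocyst. The first 3 stages had overlapping neighbours, the rise from 8-16 cells to morula was 6.92-fold (5.25 to 9.25), and the blastocyst was 5.47-fold above the oocyte (4.26 to 7.12). Pig DIS3L2, on chromosome 15 from 132540263 to 132983215 on the plus strand, stood at 70.8, 60.6, 68.9, 42.3 and 34.6 RPM. The pig blastocyst was 2.05-fold below the oocyte (1.64 to 2.55), a difference of -1.01 that was not called.

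**Figure D3:**
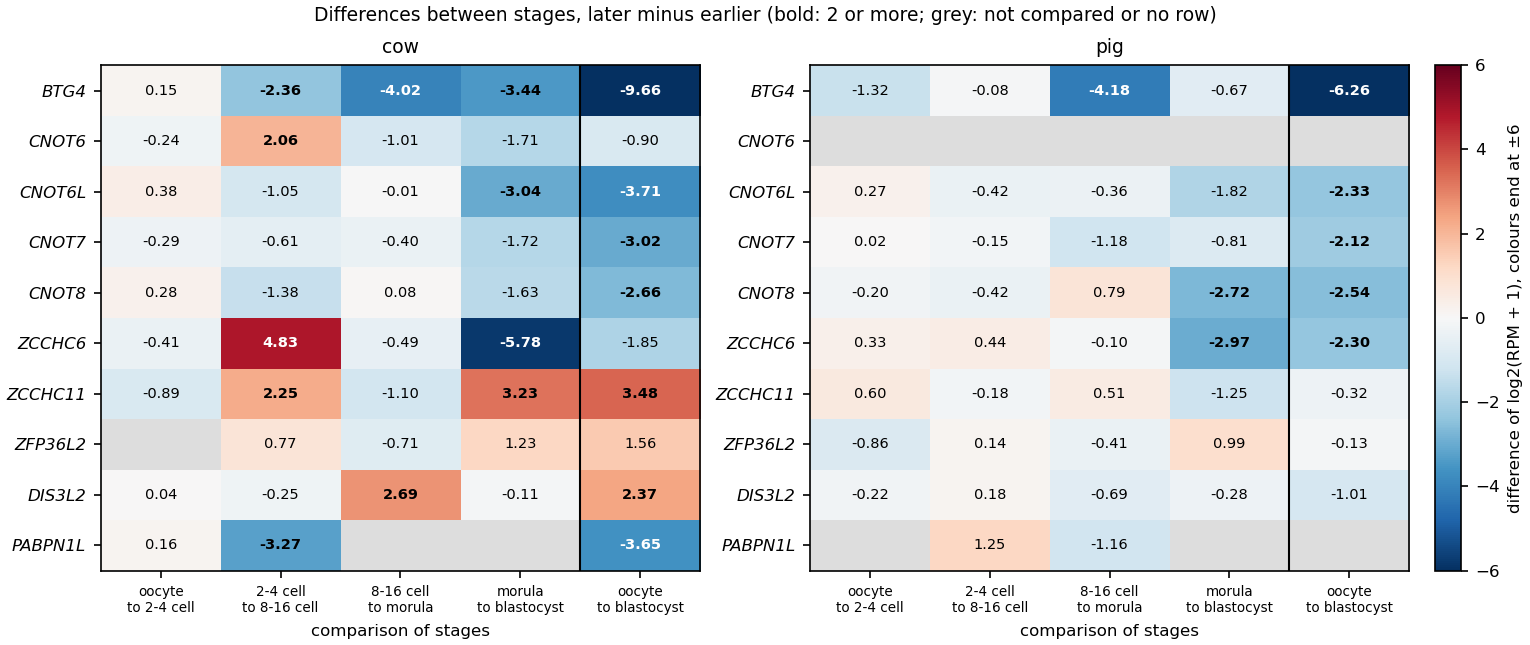
Differences of log2(RPM + 1), later minus earlier stage, for each gene and comparison in cow and pig, as colour and number, with called differences in bold and grey where a gene was not compared or had no row. BTG4 is at -4.02 in the cow and -4.18 in the pig from 8-16 cells to morula, whereas ZCCHC6 at 4.83 and DIS3L2 at 2.69 are called higher in the cow alone.

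Set side by side by step, no member was called from oocyte to 2-4 cells. In the cow 0.196% of compared genes were called higher and 0.178% lower at that step, and in the pig 3.26% and 2.17%. From 2-4 to 8-16 cells 3 of 10 cow members were called higher, CNOT6, ZCCHC6 and ZCCHC11, against 12.6% of all compared genes, and 2 lower, BTG4 and PABPN1L, against 14.6%. None of the 9 pig members was called at that step, at which 4.33% of pig genes were called higher and 0.543% lower.

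From 8-16 cells to morula BTG4 was called lower in both species, 1 of 9 compared members in each, against 5.15% of cow genes and 11.3% of pig genes. DIS3L2 was the 1 cow member called higher, against 6.67%, and 0 pig members were, against 12.0%. From morula to blastocyst 3 of 9 compared cow members were called lower, BTG4, CNOT6L and ZCCHC6, against 11.5%, and ZCCHC11 was called higher, against 11.9%. In the pig 2 of 8 were called lower at that step, CNOT8 and ZCCHC6, against 13.8%, and 0 higher, against 13.8%. On the log2(RPM + 1) scale, the last step was the steepest in its overall direction for 7 of 10 cow members and 4 of 9 pig members. Pig ZCCHC11 is among these, with an overall difference of only -0.32. The cow libraries of that step also differ in mitochondrial reads, at 9.15% and 30.2%. The share of all genes steepest at that step is not given here, so these counts are not read as a result of the members.

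Paralogues of the deadenylase pairs can stand in for each other in the complex. Their reads, and those of ZCCHC6 and ZCCHC11, were also set against each other within each library. A change of such a ratio does not depend on library scaling. Lengths differ between genes, so only changes of a ratio are read. The cow CNOT6 to CNOT6L ratio was 0.935 in the oocyte, 0.608 at 2-4 cells, 5.32 at 8-16 cells, 2.64 in the morula and 7.14 in the blastocyst (5.97 to 8.58). The balance thus moved toward CNOT6 after 2-4 cells.

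The CNOT7 to CNOT8 ratio moved less in the cow, over 13.0, 8.72, 15.3, 10.9 and 11.2. In the pig it was 2.90, 3.39, 4.10, 1.03 and 4.03, and the morula (0.890 to 1.20) stood apart from the other 4 stages. The ZCCHC6 to ZCCHC11 ratio was 14.9, 22.4, 120, 191 and 0.340 in the cow from oocyte to blastocyst. Its interval was 147 to 252 in the morula and 0.312 to 0.371 in the blastocyst, so the balance moved toward ZCCHC11 at the last step. In the pig this ratio was 10.04, 8.02, 12.6, 8.00 and 2.50, lowest in the blastocyst as well (1.53 to 4.20).

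**Figure D4:**
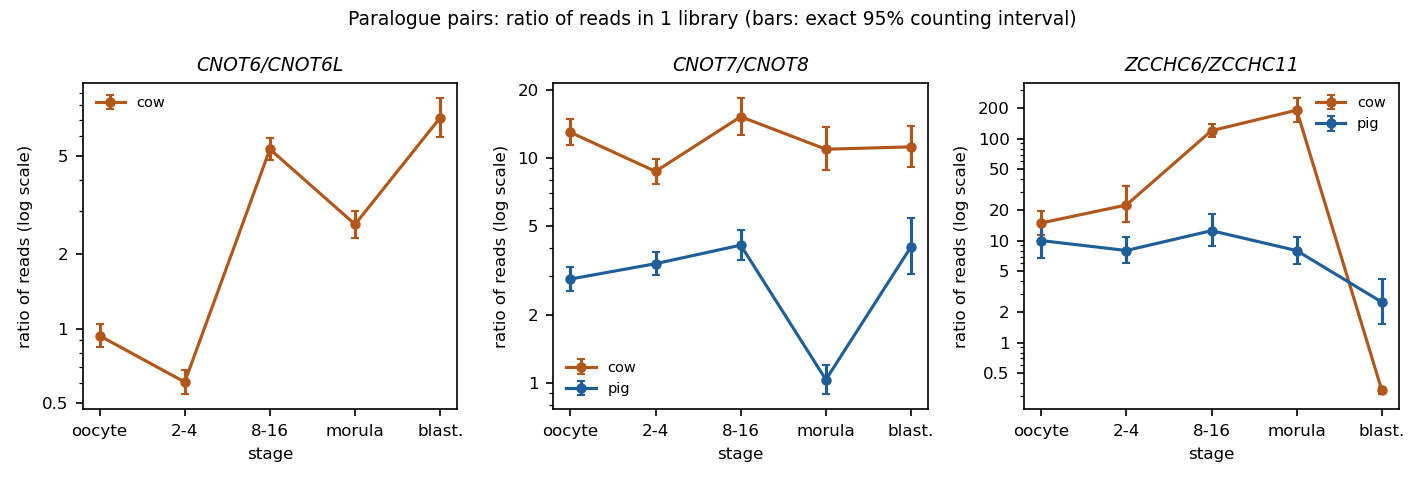
Ratio of the reads of 2 paralogues within a library (log scale) at the 5 stages in cow (brown) and pig (blue), with exact 95% counting intervals as bars. The cow ZCCHC6 to ZCCHC11 ratio goes from 191 in the morula to 0.340 in the blastocyst, and the pig CNOT7 to CNOT8 ratio stands at 1.03 in the morula.

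The wider machinery was read from a list of 99 other genes for deadenylation, decapping, decay and tailing, of which 91 had a cow row and 88 a pig row. From oocyte to blastocyst 12 of 88 compared cow genes were called higher and 15 lower, with a median difference of -0.13, and 14 of 79 compared pig genes were called higher and 12 lower, with a median of 0.30. Both counts lay under the shares over all genes given above in each direction. The medians of the list were above those of the 10 members, at -2.25 in the cow and -2.12 in the pig.

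The deadenylase subunits sit on the scaffold CNOT1, which had no called difference. Cow CNOT1 stood at 598, 606, 550, 617 and 507 RPM from oocyte to blastocyst, and pig CNOT1 at 363, 243, 275, 482 and 409 RPM. CNOT2, part of the module that binds RNA and regulators, was highest in the morula in both species, at 284 RPM in the cow and 301.4 RPM in the pig. From oocyte to blastocyst it had a difference of -0.66 in the cow, and pig levels of 40.3 and 116 RPM at these 2 stages, neither called. Its partner CNOT3 fell in the cow over 61.1, 114, 21.9, 7.69 and 4.09 RPM, a difference of -3.61, and had a difference of -0.97 in the pig. Of the 7 genes listed as core subunits, 2 were called lower in each species. These were CNOT3 and CNOT4, a ubiquitin ligase, in the cow, and CNOT4 and CNOT11 in the pig. The shares of all compared genes called lower were 18.4% in the cow and 19.2% in the pig. Of the 7 genes 0 were called higher, against 21.8% and 26.0%. With 7 genes these counts are not read as a result of the class.

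The BTG and TOB adaptors other than BTG4 did not share its course. Cow BTG1 stood at 45.0, 20.7, 394, 195 and 60.1 RPM, with a difference of 0.41 from oocyte to blastocyst, and pig BTG1 rose over 12.4, 12.6, 63.2, 194 and 71.3 RPM, a difference of 2.43. BTG2 had 0, 0, 0, 1 and 14 reads in the cow and 3, 1, 4, 5 and 76 reads in the pig. TOB1 fell in the cow from 56.8 to 9.73 RPM, a difference of -2.43, and had a difference of 0.45 in the pig. TOB2 was not called in either species, at 0.26 and 1.42. From oocyte to blastocyst 3 of the 5 adaptors were called higher in the pig, BTG1, BTG2 and BTG3, against 26.0% of all compared genes, and 0 of 4 compared in the cow, against 21.8%. Cow BTG1, BTG3 and TOB2 had differences above 0 that were not called, and cow BTG2 was under the minimum of 1 RPM.

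The 4 largest falls of the list in the cow were those of PAIP1, a partner of the poly(A)-binding protein (1891 to 23.9 RPM, 79.1-fold), the poly(A) polymerase PAPOLG (704 to 8.95 RPM, 78.6-fold), the deadenylase PNLDC1 (53.6 to 0.705 RPM, 75.9-fold) and PATL2, an oocyte protein that represses translation (76.1 to 1.97 RPM, 38.5-fold). In the pig they were those of CPEB1, which binds the cytoplasmic polyadenylation element (137 RPM to 0 reads, at least 171-fold lower), FAM46C (676 to 6.97 RPM, 97.0-fold), PABPC1L, the poly(A)-binding protein of oocytes (46 reads to 1 read), and PAIP1 (405 to 46.9 RPM, 8.63-fold). These falls, and the rises below, were ranked by the difference of log2(RPM + 1) and not by fold. On that scale PAIP1 was among the 4 in both species.

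Among the largest rises in the cow were those of SAMD4A, a translational repressor that recruits the deadenylase (1 read to 84.9 RPM), YTHDF2, a reader of N6-methyladenosine (4.87 to 62.3 RPM, 12.8-fold), and PAN3, a subunit of the PAN2-PAN3 deadenylase (51.3 to 417 RPM, 8.13-fold). In the pig they were those of SAMD4A (1 read to 43.2 RPM), the decapping-related LSM2 (1 read to 26.3 RPM), the exosome helicase SKIV2L (0 reads to 20.6 RPM, at least 23.2-fold higher) and BTG3 (2.07 to 36.7 RPM, 17.7-fold). SAMD4A led the rises in both species.

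**Figure D5:**
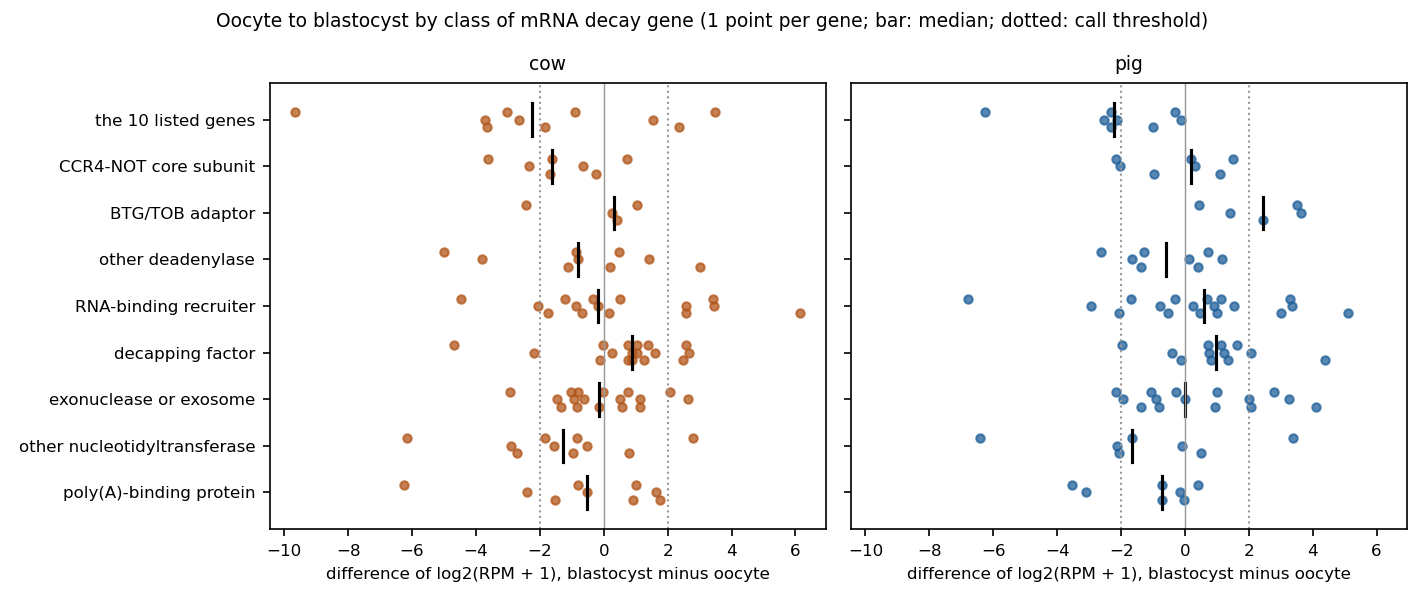
Differences from oocyte to blastocyst of log2(RPM + 1) for each compared gene (points) by class of mRNA decay gene in cow and pig, with class medians as bars and the call threshold of 2 as dotted lines. The 10 listed genes are mostly left of 0 with BTG4 at -9.66 and -6.26, whereas the other classes hold points on both sides of 0, except the BTG/TOB adaptors in the pig, which all lie above 0.

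Genes with a course like that of BTG4 were ranked by the lower of the cow and pig Pearson r of log2(RPM + 1) over the 5 stages, among 6277 shared symbols with at least 10 RPM in a library of each species. With 5 points that share libraries this is a description, and 101 symbols reached 0.95 in both species. The nearest were PAIP1 (0.989), DZIP1 (0.988), ACCSL (0.988), LIFR (0.988), CHL1 (0.987) and RGS2 (0.986). RGS2 went from 972 to 3.88 RPM in the cow from oocyte to blastocyst and from 261 RPM to 0 reads in the pig. Of the members, CNOT7 was nearest, at rank 68 with 0.960, then CNOT6L at rank 659 with 0.802. DIS3L2 was far down the ranking, with an r of -0.907 in the cow and 0.976 in the pig.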

How the data were processed

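Each species has 1 deposited table of log2 values, whose columns are the 5 stages and whose rows are genes, per the file headers. Trim Galore 0.6.4, HISAT2 2.1.0 and the builds Sscrofa11.1 and UMD3.1 are named, with no role stated, in the submitters' processing notes, and positions are printed as in the authors' tables. The counting method, strand handling and duplicate removal are not given in the sources used here.

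In every column the log2 values deposited by the authors come out as whole reads per 1000000 (within 0.01 read), with 0 reads written as 0.9 of a read. Reads, RPM and library totals were recovered from this step. Low values were not removed, but a gene needed 1 RPM in 1 of both stages to be compared. The pseudocount was 1 RPM and the call threshold 2. Python 3.11.15, numpy 2.4.6, pandas 2.3.3 and scipy 1.17.1 were used, and the scripts were tested on simulated data. Without replicates no count model was run.

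The members and lists were chosen with earlier results of these data known. All members are named, with CNOT1, CNOT2, CNOT3, BTG1, BTG2, TOB1 and TOB2, the 4 largest called falls and rises of the list per species from oocyte to blastocyst, and the 6 genes most like BTG4; 1 gene that the rule names is not reported here. Genes named beyond these overlap a member or were chosen after their values were seen. Alternatives changed the pseudocount, threshold, minimum, scaling, depth and the handling of repeated symbols and of 0 reads, the last chosen after seeing the data.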

Additional observations from a re-analysis of the deposited data

Results flagged for a closer look

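In 5 comparisons a member moved in opposite directions in cow and pig, with the 2 stages' counting intervals apart in each species. The share of all genes that meet this rule is not given here, so the count has no background. With many reads, intervals stand apart at small differences too. Each species has 1 library per stage, so the difference between species was not tested in any of them, and the opposite signs are given as values. DIS3L2 was higher in the cow and lower in the pig from 8-16 cells to morula (2.69 and -0.69) and from oocyte to blastocyst (2.37 and -1.01), on the log2(RPM + 1) scale. ZCCHC11 differed by 3.23 in the cow and -1.25 in the pig from morula to blastocyst. BTG4 differed by 0.15 in the cow and -1.32 in the pig from oocyte to 2-4 cells, and the small cow value was -0.16 with libraries scaled to the median gene. ZCCHC6 differed by -0.41 in the cow and 0.33 in the pig at the same step. Only the cow values of DIS3L2 and ZCCHC11 passed the threshold of 2.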

How the results depend on the processing

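No paired analysis was possible because each stage of a species has 1 library and the labels give no replicate numbers. Of the 19 differences of members from oocyte to blastocyst, 18 kept their sign in all 8 alternatives of pseudocount, scaling, depth and repeated symbols or 0 reads; the exception was pig PABPN1L, at -0.11 to 0, which has 0 reads at both stages. Those of BTG4 ran from -10.05 to -8.14 in the cow and from -6.71 to -6.02 in the pig. Scaling moved the median of all genes from oocyte to blastocyst by 0.42 in the cow (non-mitochondrial reads) and by -0.51 in the pig (median gene), and small differences that were not called changed sign at single steps, among them cow CNOT8 from 8-16 cells to morula (0.08, and -0.25 with the median gene). Counts with a threshold of 1 in place of 2 have no share of all genes beside them here. Cow members called became 7 instead of 5 from 2-4 to 8-16 cells and 4 instead of 2 from 8-16 cells to morula. They became 8 instead of 4 from morula to blastocyst and 9 instead of 7 from oocyte to blastocyst. Pig members called by step became 1 instead of 0, 1 instead of 0, 3 instead of 1 and 4 instead of 2. From oocyte to blastocyst they became 6 instead of 5 in the pig. The list genes called became 7, 59, 36 and 43 by step in the cow instead of 0, 25, 9 and 10, and 20, 18, 39 and 34 in the pig instead of 5, 3, 13 and 12; from oocyte to blastocyst they became 50 instead of 27 and 47 instead of 26. A pseudocount of 5 left 3 of 5 cow members called from 2-4 to 8-16 cells and, of the pig list, 2, 0 and 8 genes at the first 3 steps and 17 from oocyte to blastocyst. At the first pig step the list count was 9 with a pseudocount of 0.5 and 3 with a minimum of 5 RPM, and from 2-4 to 8-16 cells it was 0 with quantile normalisation. The cause of these moves was not tested. Depth limits PABPN1L in both species and ZFP36L2 in the cow, each with under 10 reads at most stages.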

Other observations

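Of the 71 list genes compared in both species, 6 were lower and 7 were higher from oocyte to blastocyst in both, and 0 were called in opposite directions. Of all 8566 genes compared in both species 727 were lower in both (8.49%) and 955 higher in both. The counts of the list in the same direction are thus near the background. The share of all genes called in opposite directions is not given here, so the count of 0 has no background. The genes named were chosen after their values were seen. Lower in both were CNOT4, FAM46C, KHSRP, PABPC1L, PAIP1 and PAPD7. The ubiquitin ligase CNOT4 stood at 466 RPM in the cow oocyte and 92.1 RPM in the cow blastocyst, and at 459 and 112 RPM in the pig. PAPD7, a nucleotidyltransferase that extends poly(A) tails, went from 234 to 30.5 RPM in the cow and from 98.9 to 22.8 RPM in the pig. Among those higher in both were EXOSC7, LSM2, LSM6, RC3H2, SAMD4A and TNRC6C. The exosome subunit EXOSC7 went from 5.88 to 41.5 RPM in the cow and from 4.14 to 48.3 RPM in the pig.

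The adaptor BTG3 had a course of its own in each species. In the cow it had 0, 1, 239, 73 and 20 reads from oocyte to blastocyst, and in the pig 7, 26, 70, 392 and 137 reads. Its highest level was thus at 8-16 cells in the cow (44.0 RPM) and in the morula in the pig (131 RPM), with 1 library behind each value.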
